A study of Homo sapiens with 4 samples.

Results

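Levels of 10 T-box genes, TBXT, EOMES, TBX1, TBX2, TBX3, TBX4, TBX5, TBX6, TBX18 and TBX20, were followed through the first days of blood differentiation of human embryonic stem cells. The genes were taken by name: the Entrez gene IDs of the deposited tables were matched to these symbols, and all 10 were found among the 19390 gene IDs listed in any library. The cells were wild-type H1, an established embryonic stem cell line, grown in a custom form of mTeSR1 medium. One group was undifferentiated H1 cells at day 0. The other groups were collected at day 2, after 2 days with activin A at 40 ng/ml and BMP4 at 50 ng/ml, and at days 3 and 4, after a change to VEGF at 40 ng/ml and bFGF at 50 ng/ml. Each day is 1 library of RNA from the bulk culture, so differences between days cannot be set against replicates, p-values are left out, and the 95% intervals in brackets hold counting error alone. In bulk RNA, fewer cells of a type and less RNA per cell cannot be told apart.

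T-box proteins are transcription factors that share a DNA-binding domain, the T-box, named after the mouse T (brachyury) gene, whose human name is TBXT. In the early embryo EOMES and TBXT are switched on where the primitive streak forms, under NODAL, WNT and BMP signals, and direct the formation of endoderm and mesoderm. Other members act later: TBX6 in the paraxial mesoderm that gives the somites, TBX5 and TBX20 in the heart, TBX1 in the pharynx and outflow tract, TBX4 and TBX5 in the limbs, and TBX18 in the epicardium and sinus node. TBX2 and TBX3 are repressors with roles in heart and limb, and TBX3 also acts in stem cells.

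The libraries held 5.04 to 5.49 M expected counts, and 1 count stood for 0.182 to 0.196 CPM, the counts scaled to a common library size. All 6 markers of pluripotent cells had counts on every day, with a summed level of 4057 CPM at day 0 and 403 CPM at day 4. The 6 streak markers MIXL1, GSC, LHX1, MESP1, CER1 and NODAL summed to 15.5, 2549, 192 and 35.3 CPM at days 0, 2, 3 and 4. Of these sums CER1 alone gave 2287 CPM at day 2, and LHX1 157 CPM at day 3. The 8 endothelial markers summed to 249.6, 426, 1080.2 and 1560.5 CPM, and the 7 early blood markers to 0.970, 29.8, 89.5 and 227 CPM. KDR alone gave 209, 354, 868 and 942 CPM of the endothelial sums, and CDH5 and PLVAP had 1 count each at day 2. RUNX1 gave 24.7 CPM of the blood sum at day 2. Early blood markers GATA1, GFI1B and HBE1 were at 0 counts until day 3 and had counts at day 4. The 6 cardiomyocyte markers summed to 14.9, 75.7, 62.6 and 83.6 CPM, and the 6 paraxial mesoderm markers to no more than 5.88 CPM on any day. Markers of definitive endoderm summed to 2.72, 149, 229 and 185 CPM and those of amnion and trophoblast to 8.73, 195, 244 and 188 CPM. Notochord markers summed to 7.95, 53.0, 36.7 and 48.2 CPM and neuroectoderm markers to 384, 860.4, 721 and 731 CPM, of which NES alone gave 769 CPM at day 2, while the defining gene SOX1 was not listed in any library. The part of such shifts in the makeup of the cultures in the T-box levels was not tested.

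At day 0 the 10 genes were near silent, with 19 counts among them, and 4 of them (TBX2, TBX4, TBX5 and TBX18) had none. From day 2 on they divided into a set that was highest at day 2 and lower by day 4 (EOMES, TBXT and TBX6), a pair that reached its level by day 2 or 3 and held it (TBX3 and TBX20), and a set with 3 to 8 counts at day 2 and its highest value at day 3 or 4 (TBX2, TBX4 and TBX18). TBX1 and TBX5 stayed close to the detection limit. Set against each other per length of transcript, in FPKM, the members summed to 1.61 at day 0, 212 at day 2, 149 at day 3 and 85.4 at day 4. EOMES made up 62.8% of that sum at day 2, 40.5% at day 3 and 15.9% at day 4. TBX3 made up 26.1%, 43.5% and 68.1% on the same days. The leading T-box transcript thus went from EOMES at day 2 to TBX3 at day 4.

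**Figure D1:**
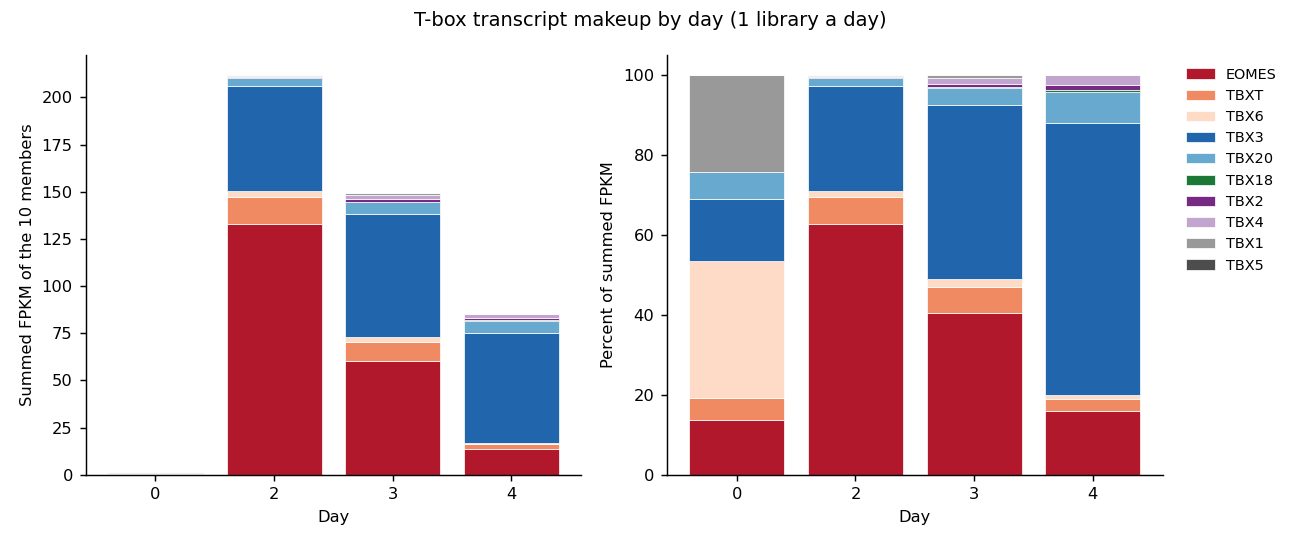
Stacked bars of the deposited FPKM of the 10 T-box genes at days 0, 2, 3 and 4, as summed FPKM (left) and as percent of the day's sum (right), 1 library a day. EOMES falls from 62.8% at day 2 to 15.9% at day 4 while TBX3 goes from 26.1% to 68.1%; the day 0 bar on the right rests on 19 counts.

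At a size threshold of 4-fold on log2(CPM + 1), applied where either day reached 1 CPM, 4 of the 10 members were higher at day 2 than at day 0 (EOMES, TBX3, TBXT and TBX20) and none was lower. Of all 15379 genes compared, 4.63% were higher and 1.93% lower by that rule. Only 6 members had enough counts to be compared, and those that were near 0 at day 0 could pass only by being higher. Between days 2 and 3 no member was past the threshold in either direction, as against 1.32% of all genes higher and 0.406% lower. Between days 3 and 4, EOMES alone was lower, against 0.228% of all genes lower and 0.377% higher. Over the whole VEGF and bFGF step, day 4 against day 2, EOMES and TBXT were lower and no member was higher, where 1.40% of all genes were lower and 2.32% higher. Day 4 against day 0 had 7 of 10 members higher (TBX3, EOMES, TBX20, TBXT, TBX4, TBX2 and TBX18) and none lower, beside 6.27% and 3.44% of all genes compared. Here 8 members had enough counts to be compared, TBX2, TBX4 and TBX18 only through their day 4 level. No member was above 1.16 CPM at day 0, so none could have been called lower. The comparisons share libraries, so these counts are not independent of each other. The count for day 4 against day 0 depends on the scale: with a pseudocount of 5 CPM it was 2 (EOMES and TBX3), beside 3.22% of all genes, and on the deposited FPKM it was 3 (EOMES, TBX3 and TBX20), beside 4.84%. With a pseudocount of 5 CPM the call of TBXT as lower at day 4 than at day 2 was lost as well.

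**Figure D2:**
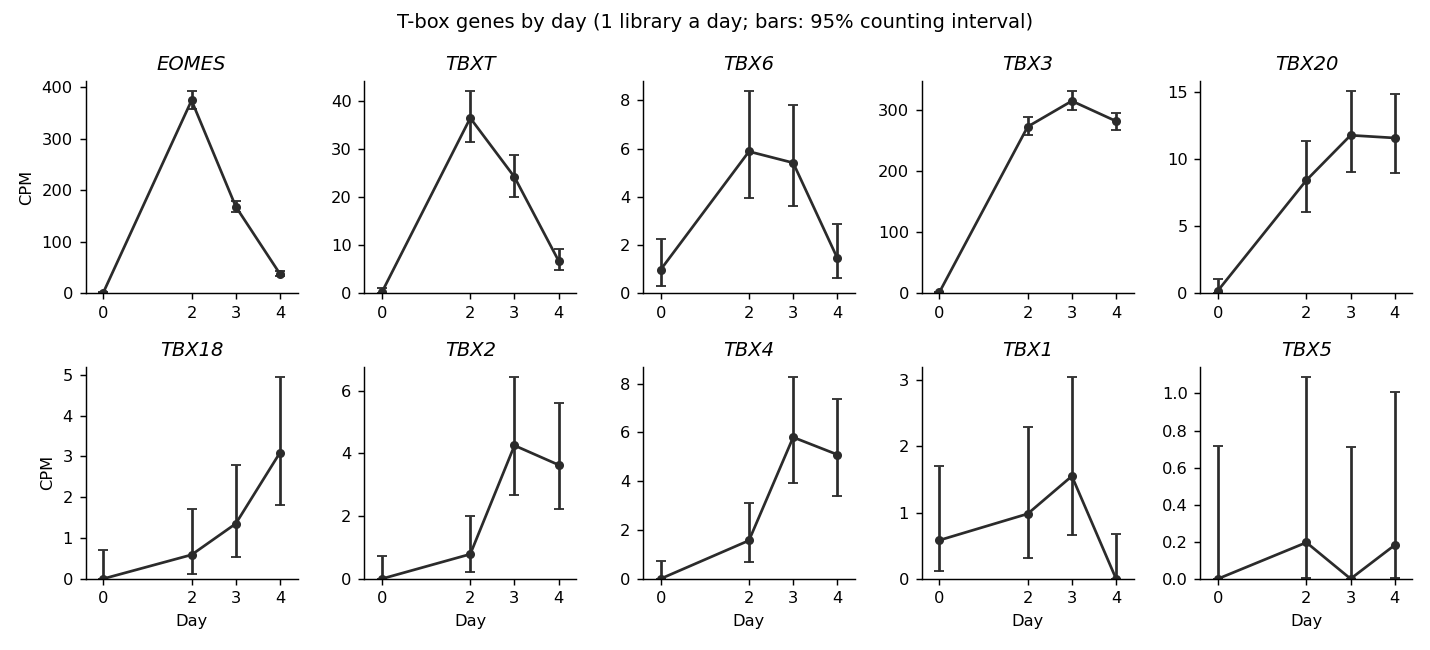
CPM of each T-box gene (vertical axis, linear, its own scale in each panel) at days 0, 2, 3 and 4, with 95% Poisson counting intervals and 1 library a day. EOMES, TBXT and TBX6 are highest at day 2, TBX3 and TBX20 hold their level to day 4, and TBX2, TBX4 and TBX18, low at day 2, are highest at day 3 or 4.

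For 8 of the 10 genes RefSeq (build GRCh38.p14) gave 10 windows around annotated transcript starts, of which the 250 bases before the start were searched. Shown, 5′ to 3′ on the gene's strand, are stretches of these windows outside annotated exons, for 2 genes that were highest at day 2 (TBXT and TBX6) and 2 that were not (TBX18 and TBX20), with the SMAD box letters CAGAC, in either orientation, in capitals. TBXT lies on the minus strand, chr6:166167878-166168101, between its alternative starts. TBX6 is on the minus strand, chr16:30091925-30092174. TBX18 is on the minus strand, chr6:84764599-84764848. For TBX6 and TBX18 the first 32 bases after the start were in no GENCODE v29 transcript of the gene. For all other windows they were. TBX20 is on the minus strand, chr7:35254148-35254350. The whole EOMES window lies within annotated exons and is not printed.
TBXT: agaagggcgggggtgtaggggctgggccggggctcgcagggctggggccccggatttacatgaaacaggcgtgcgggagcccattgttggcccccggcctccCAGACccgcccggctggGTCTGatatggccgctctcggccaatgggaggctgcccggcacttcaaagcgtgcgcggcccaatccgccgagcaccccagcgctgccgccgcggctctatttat
TBX6: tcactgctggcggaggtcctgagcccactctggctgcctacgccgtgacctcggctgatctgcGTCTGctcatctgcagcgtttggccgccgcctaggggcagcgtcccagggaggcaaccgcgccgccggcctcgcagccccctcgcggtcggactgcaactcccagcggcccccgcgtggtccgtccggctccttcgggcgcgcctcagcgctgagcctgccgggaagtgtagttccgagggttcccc
TBX18: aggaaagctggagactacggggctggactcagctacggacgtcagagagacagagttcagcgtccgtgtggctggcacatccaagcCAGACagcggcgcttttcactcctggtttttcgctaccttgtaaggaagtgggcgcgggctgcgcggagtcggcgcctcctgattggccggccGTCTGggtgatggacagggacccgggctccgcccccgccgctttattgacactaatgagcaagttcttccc
TBX20: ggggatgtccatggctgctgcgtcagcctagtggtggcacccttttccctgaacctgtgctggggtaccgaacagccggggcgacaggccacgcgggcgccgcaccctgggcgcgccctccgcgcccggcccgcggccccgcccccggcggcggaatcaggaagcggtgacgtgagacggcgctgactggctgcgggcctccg

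CAGAC, a core bound by SMAD proteins, was found on either strand in 7 of the 10 windows, of 6 genes (TBXT, TBX1, TBX4, TBX5, TBX6 and TBX18), and in 38.0% of all 35116 windows of the same length. The printed TBXT window and the TBX18 window held it in each orientation. The other TBXT window and those of EOMES and TBX20 had no match. The letters AGGTGT, the core of the element that T-box proteins bind, were in no window of these genes and in 9.57% of all windows. The longer T-box letters AGGTGTGA, which contain AGGTGT, were in none and in 0.786%. ATCAAAG of TCF and LEF factors, AGATAA of GATA factors, and AATCACA and AATACACA of FOXH1 were in none of the 10 windows either, and in 2.26%, 9.17%, 3.24% and 0.666% of all windows. A match is a run of letters in a short window and not a binding site, and the distal enhancers of these genes were not searched.

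EOMES (gene ID 8320), known as a starter of the endoderm and mesoderm programmes downstream of NODAL, had the highest level of any member at day 2. It measured 0.582, 374, 168 and 37.4 CPM at days 0, 2, 3 and 4, from 3, 1909, 867 and 206 counts. Its FPKM at day 2 was above that of 97.5% of the genes listed in that library, and at day 4 above that of 69.9%. The ratio to day 0 was 644-fold at day 2 (219.9 to 3124). It then stood at 44.7% of the day 2 level at day 3 (41.2 to 48.5) and at 8.62 to 11.5% of it, the 95% interval, at day 4. The daily step was thus 2.23-fold lower at day 3 (2.06 to 2.42) and 4.48-fold lower at day 4 (3.84 to 5.24). Even so, day 4 was 64.4-fold above day 0 (21.7 to 315).

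TBXT (gene ID 6862), the brachyury gene of nascent mesoderm and notochord, had the same order of days at lower CPM. It measured 0.194, 36.5, 24.2 and 6.72 CPM, from 1, 186, 125 and 37 counts. Day 2 was the highest day, and day 3 was lower by more than counting error, at 66.2% of it (52.4 to 83.5). At day 4, 18.4% of the day 2 level remained (12.6 to 26.3), a 5.43-fold lower level (3.80 to 7.95). Of the 5 notochord markers, NOTO and SHH had at most 3 counts on any day, and CHRD, which encodes the BMP antagonist chordin, had 4, 12, 18 and 22. NOG, the gene of the BMP antagonist noggin, measured 0.194, 50.0, 29.6 and 38.9 CPM and made up most of their sum from day 2 on, while FOXJ1 had 35, 2, 17 and 26 counts. The part of such cells in the TBXT level was not tested.

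The decline was larger for EOMES than for TBXT. From day 2 to day 4 the ratio of change, TBXT over EOMES, was 1.84 (1.22 to 2.72), and from day 2 to day 3 it was 1.48 (1.15 to 1.89). From day 3 to day 4 the interval spanned equal change, at 1.25 (0.813 to 1.87). These intervals come from the counts of both genes in the same pair of libraries.

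TBX6 (gene ID 6911), which commits streak progenitors to paraxial mesoderm, was a minor transcript with a plateau over days 2 and 3. It measured 0.970, 5.88, 5.41 and 1.45 CPM, from 5, 30, 28 and 8 counts. Day 2 was 6.07-fold above day 0 (2.33 to 20.0), and day 3 was 92.0% of day 2 (52.9 to 159). Day 4 was 4.05-fold below day 2 (1.81 to 10.2), and against day 0 the ratio was 1.50 (0.433 to 5.83). Although these ratios exceed 4-fold, neither passed the threshold on log2(CPM + 1), where the differences were 1.81 and -1.49. From day 2 to day 3, TBX6 kept more of its level than EOMES, with a ratio of change of 2.05 (1.17 to 3.58). The same comparison was within counting error from day 3 to day 4, with an interval of 0.467 to 2.76, and from day 2 to day 4, at 2.47 (0.965 to 5.61). Its difference from TBXT over the same day, 1.39 (0.758 to 2.53), was within counting error.

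TBX3 (gene ID 6926), a repressor with roles in stem cells, limb and heart, was the other abundant member. It measured 1.16, 272, 314 and 281 CPM, from 6, 1388, 1627 and 1544 counts. The 3 later days lie close together and all stand far above day 0. Day 2 was 234-fold above day 0 (107 to 639) and day 4 241-fold above it (111 to 658). Day 3 was 1.15-fold above day 2 (1.07 to 1.24), and the ratio of day 4 to day 2 was 1.03 (0.958 to 1.11). EOMES and TBX3 had stood 2.41-fold apart in FPKM at day 2, with EOMES the higher (2.24 to 2.58). At day 3 they were at 60.5 and 65.0 FPKM, a ratio of TBX3 to EOMES of 1.08 (0.989 to 1.17), and at day 4 TBX3 was 4.29-fold the higher (3.70 to 4.98). The files list TBX3 with 2 transcripts and give a length averaged over them, which was 4754 bp at day 0, from 6 counts, and 4784 to 4795 bp on the later days.

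TBX20 (gene ID 57057), a regulator of heart muscle and endocardium, reached lower levels in the same order of days as TBX3. It measured 0.194, 8.44, 11.8 and 11.6 CPM, from 1, 43, 61 and 64 counts. Day 2 was 43.5-fold above day 0 (7.40 to 1757), and the interval is wide because day 0 rests on 1 count. Neither day 3 against day 2, at a ratio of 1.40 (0.931 to 2.12), nor day 4 against day 3, at 0.987 (0.684 to 1.42), differed beyond counting error. TBX20 stood behind TBXT in FPKM at day 2, by 3.14-fold (2.25 to 4.49), and ahead of it at day 4, by 2.39-fold (1.57 to 3.68).

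TBX18 (gene ID 9096), a gene of epicardium, sinus node and somite borders, had its highest value on the last day. It measured 0, 0.588, 1.35 and 3.09 CPM, from 0, 3, 7 and 17 counts. Each daily step alone was within counting error, with ratios of 2.30 (0.525 to 13.8) at day 3 and 2.28 (0.900 to 6.51) at day 4, while day 4 was 5.25-fold above day 2 (1.52 to 28.0). Day 0, at 0 counts, was at 0 to 25.9% of the day 4 level within counting error.

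TBX2 and TBX4 are neighbouring genes on the same chromosome, as are TBX3 and TBX5, an arrangement that goes back to an ancestral gene cluster. TBX2 (gene ID 6909), a repressor in heart and limb, measured 0, 0.785, 4.25 and 3.63 CPM, from 0, 4, 22 and 20 counts. TBX4 (gene ID 9496), of hindlimb and allantois, measured 0, 1.57, 5.80 and 5.09 CPM, from 0, 8, 30 and 28 counts. In both genes the values were low at day 2 and higher at days 3 and 4, by 5.42-fold (1.84 to 21.6) and 3.69-fold (1.65 to 9.33) from day 2 to day 3. Between days 3 and 4 the ratios were 0.855 (0.443 to 1.64) and 0.878 (0.505 to 1.52). The pair's steps from day 2 to day 3 did not differ beyond counting error, with a ratio of TBX4 change to TBX2 change of 0.686 (0.134 to 2.97). In FPKM TBX4 was above TBX2, by 1.89-fold at day 3 (1.05 to 3.43) and 1.96-fold at day 4 (1.07 to 3.68).

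In the other linked pair the abundant TBX3 lies next to TBX5 (gene ID 6910), the Holt-Oram gene of heart and forelimb, had 0, 1, 0 and 1 counts. A count of 0 allows up to 3 counts, or 0.58 CPM at day 3. TBX1 (gene ID 6899), a pharyngeal gene, measured 0.582, 0.981, 1.55 and 0 CPM, from 3, 5, 8 and 0 counts. No step up to day 3 was beyond counting error, and day 4 was at 0 to 55.1% of the day 3 level within counting error. RefSeq has GNB1L overlapping TBX1 and the antisense genes TBX3-AS1 and TBX5-AS1 over their namesakes. Whether reads were counted by strand is not given in the sources used here, so reads of such overlapping genes may not be told apart.

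**Figure D3:**
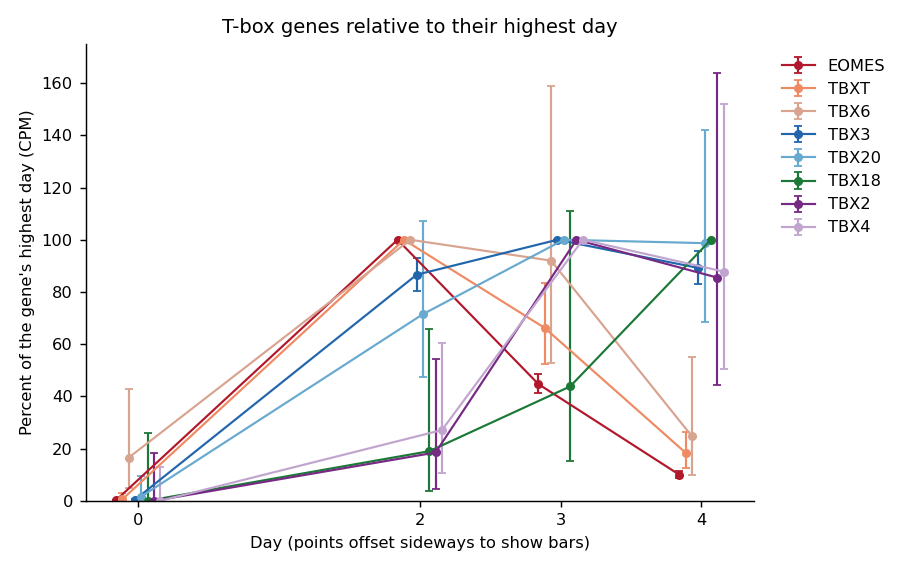
CPM of 8 T-box genes as percent of each gene's highest day, with 95% counting intervals of the ratio (none at the highest day), days 0 to 4, 1 library a day; TBX1 and TBX5 are left out for low counts. By day 4 EOMES is within 8.62 to 11.5% of its highest day and TBXT at 18.4%, TBX3 stays at 86.6% or more from day 2, and TBX18 is highest at day 4.

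The members were then ordered per length of transcript. At day 2 it ran EOMES, TBX3, TBXT and TBX20, at 133, 55.4, 14.3 and 4.56 FPKM, each beyond counting error of the next. TBX20 and TBX6, at 4.56 and 3.17 FPKM, were not separated (ratio 1.44, 0.882 to 2.37), and TBX6 was 4.80-fold above TBX4 (2.15 to 12.1). TBX4, TBX1, TBX2, TBX18 and TBX5 followed below 1 FPKM, and no neighbours among them were separated. At day 4 the order was TBX3, EOMES, TBX20 and TBXT, at 58.2, 13.6, 6.42 and 2.69 FPKM. TBXT and TBX4 were not separated there (1.28, 0.763 to 2.17). Among the scarcer members, TBX1 was 4.77-fold above TBX18 at day 3 (1.51 to 15.5), and TBX18 was 10.2-fold above TBX5 at day 4 (1.60 to 426). At day 0 no neighbouring members were separated.

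Genes of the family outside these 10 gave few counts, apart from MGA. TBX21 was not listed in any library, and TBX10, TBX15 and TBX22 had no more than 5 counts on any day. MGA, a large protein with both a T-box and a helix-loop-helix domain that acts in a repressive complex, was expressed throughout and measured 185, 130.1, 123 and 83.1 CPM. Its day 4 level was 2.23-fold below day 0 (1.99 to 2.50), short of the 4-fold threshold. TBX19, a pituitary factor, had 2, 3, 7 and 15 counts. TBR1, the closest relative of EOMES and a factor of cortical neurons, had 0, 1, 12 and 1 counts.

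For each member that reached 10 CPM, the 3 genes of nearest pattern were taken among 11523 genes that also reached 10 CPM, by the root mean square (RMS) difference of log2(CPM + 1) over the 4 days after each gene's own mean was subtracted. Nearest to TBXT was FGF17, an FGF8-subfamily ligand, with an RMS difference of 0.15 and 0.194, 27.5, 21.8 and 5.45 CPM, followed by BHLHE40 (0.23) and COL13A1 (0.25). No gene came as near to EOMES: LHX1, a homeobox gene of the streak, differed by 0.50, the R-spondin receptor LGR5 by 0.54 and ALPK2 by 0.55. These 3 were flatter from day 2 to day 3, LHX1 at 157 CPM on both days. Nearest to TBX3 was BMP4, the ligand that was also added to the medium, at 0.970, 179, 212 and 174 CPM (0.21), then SLCO2A1 (0.25) and the apelin receptor gene APLNR (0.28). Those nearest to TBX20 were PDE10A (0.05), EFHD1 (0.07) and CA2 (0.07). The RMS difference was not scaled to a gene's range. From day 0 to day 2, EOMES differed by 7.89 on log2(CPM + 1) and TBX20 by 2.98, so RMS values of different members are not directly comparable. With 4 values a gene this is a description only, and the names depend on the scale: on log2(FPKM + 1), TBX3 kept BMP4 and SLCO2A1, and the other 3 members kept none of theirs.

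**Figure D4:**
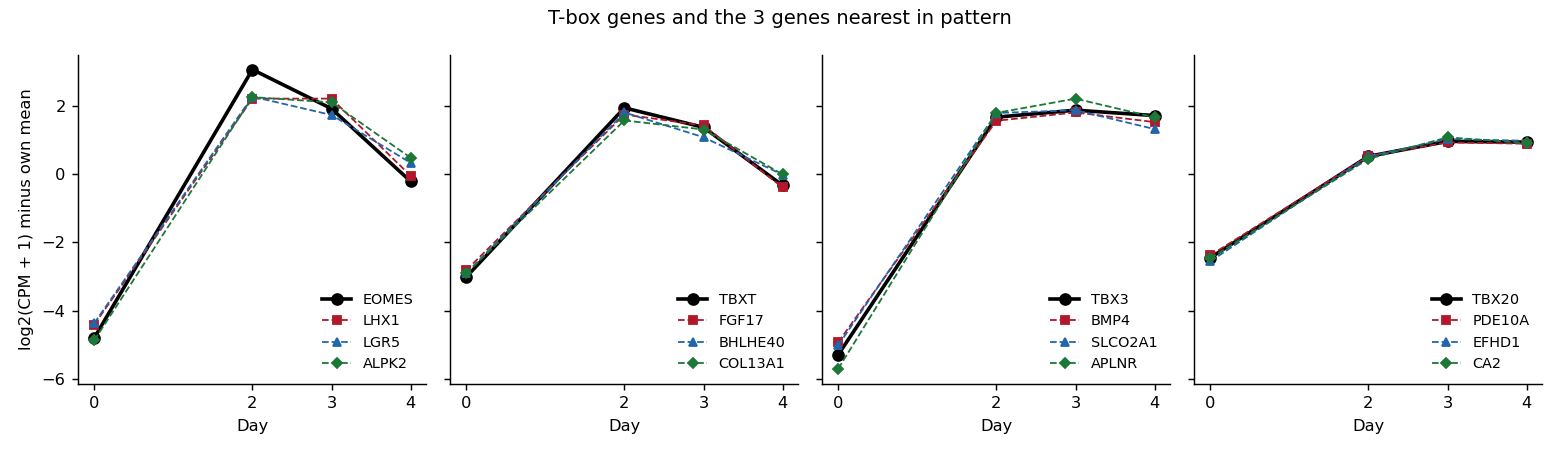
log2(CPM + 1) minus each gene's own mean over days 0, 2, 3 and 4 for EOMES, TBXT, TBX3 and TBX20 (black) and the 3 genes nearest in pattern to each, 1 library a day. The lines of TBX20 and its neighbours lie within an RMS difference of 0.07, and those near EOMES differ by 0.50 or more. RMS differences are not scaled to each gene's range, which was wider for EOMES than for TBX20.

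Genes that work with EOMES in streak and endoderm were followed as a list of 15. At day 2, 10 of 15 were past the threshold above day 0 and none below, with a median log2(CPM + 1) difference of 3.35, and 0.00 over all genes compared. Of all genes, 4.63% were higher and 1.93% lower. At day 4 against day 2, 8 of 15 were lower and none higher, beside 1.40% and 2.32% of all genes. The median was -2.27 against 0.02. At day 3, 6 of the 15 were already past the threshold below day 2, beside 0.406% of all genes. MIXL1, a homeobox gene, measured 0.194, 57.5, 5.80 and 0.909 CPM, and GSC, the goosecoid gene, had 0, 118, 3 and 1 counts. CER1, a secreted NODAL and BMP antagonist, went from 2287 CPM at day 2 to 26.3 CPM at day 3, and MESP1, a mesoderm gene that EOMES is known to induce, had 0, 47, 5 and 1 counts. SOX17, an endoderm gene, kept 90.4, 89.1 and 55.3 CPM from day 2 to day 4, and FOXA2 was highest on the last days, at 7.06, 13.9 and 14.5 CPM. FOXH1 and SMAD2, which carry NODAL signals to EOMES, were present before it, at 58.2 and 107 CPM at day 0.

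Genes linked to TBXT and TBX6 in posterior mesoderm and notochord, 26 in all, counted 10 higher and 1 lower at day 2 against day 0, with a median difference of 2.51 over the 17 compared. Beside these stood 4.63% and 1.93% of all genes, with a median of 0.00. Day 4 against day 2 counted 1 higher and 5 lower, beside 2.32% and 1.40% of all genes. Its median was -0.99 over 17 compared, and 0.02 over all genes. CYP26A1, which degrades retinoic acid, measured 3.10, 206, 115 and 43.1 CPM, an order of days like that of TBXT. FGF8, a streak ligand, had 0, 44, 2 and 2 counts. CDX2, a posterior homeobox gene, was the one that was higher, at 4.90 CPM on day 2 and 30.7 CPM on day 4, 6.26-fold (4.10 to 9.95). Genes of the presomitic mesoderm, where TBX6 acts, varied: MSGN1 had 2 counts at day 2 and none on other days, RIPPLY2 1 count at day 2, and HES7 at most 3. MESP2, a segmentation gene, had 0, 24, 10 and 1 counts and was past the threshold at day 2. The NOTCH ligand gene DLL3 had 11, 53, 43 and 8 counts, highest at days 2 and 3 as TBX6 was, and its relative DLL1 3, 3, 26 and 19. LFNG, which modulates NOTCH receptors, was the gene that was lower at day 2, 5.88-fold (3.60 to 10.1).

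Of 26 partners and targets of T-box factors in the heart, 16 were higher and none lower at day 2 against day 0, with a median difference of 3.65 over the 21 compared. Beside these stood 4.63% and 1.93% of all genes, with a median of 0.00. Day 4 against day 2 had a median of 0.43 over 24, and 0.02 over all genes. It counted 5 higher and none lower, beside 2.32% and 1.40% of all genes. These 5 were BMP10, HAND2, TCF21, MEF2C and ACTC1. HAND1, a factor of lateral and extraembryonic mesoderm, measured 1.75, 289, 443 and 594 CPM, and HAND2 0, 4.12, 12.2 and 54.5 CPM. NKX2-5, a heart factor that binds together with TBX5 and TBX20, had 0, 29, 49 and 100 counts, although TBX5 itself had at most 1. GATA4, which partners the same factors, measured 0.582, 109, 125 and 126 CPM. ACTC1, cardiac actin, went from 607 to 2808 CPM between days 2 and 4, while TNNT2, cardiac troponin T, measured 11.6, 8.44, 5.41 and 5.27 CPM and MYH6 had at most 8 counts. The myosin light chain genes MYL7, at 0.388, 51.0, 23.2 and 20.9 CPM, and MYL4, at 0.194, 9.42, 21.1 and 33.1 CPM, were both past the threshold at day 2. NPPA, a target of TBX5, had no more than 8 counts on any day, whereas NPPB, its neighbour in the genome, had 0, 81, 37 and 40 counts. GJA5, a connexin gene that T-box factors regulate in the heart, measured 2.72, 26.7, 33.0 and 47.8 CPM and was 9.83-fold higher at day 2 than at day 0 (5.66 to 18.5).

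Among 28 genes of the WNT, NODAL, BMP and FGF signals known to induce early T-box genes, 7 were higher and 1 lower at day 2 against day 0, with a median difference of 0.44 over 26. Of all genes, 4.63% were higher and 1.93% lower, with a median of 0.00. The lower gene of the list was TCF7L1, a repressor of WNT targets. The largest differences in the list at day 2 were those of BMP4, LEF1, WNT3 and ID2. BMP4 was 185-fold above day 0 (78.9 to 571) and ID2 12.7-fold (9.44 to 17.5). The WNT ligand gene WNT3 measured 3.88, 117, 77.3 and 41.8 CPM, with its highest day shared with EOMES and TBXT. AXIN2, of the same list, measured 33.2, 35.7, 58.9 and 38.5 CPM, and its ratio of day 2 to day 0 was 1.08 (0.869 to 1.33). LEF1, a mediator of WNT signals, went on to higher values, at 1.16, 55.1, 125 and 141 CPM. NODAL, at 9.89, 15.3, 1.35 and 0.545 CPM, and its coreceptor TDGF1, at 1096, 746, 256 and 143 CPM, were among 3 genes lower at day 4 than at day 2, by 28.1-fold (9.25 to 139) and 5.21-fold (4.82 to 5.63). INHBA, which encodes the subunit of activin A, was the gene of this list that was higher at day 4 than at day 2, from 12, 0, 7 and 17 counts. Of all genes, 2.32% were higher and 1.40% lower from day 2 to day 4. Of 21 corepressors and cofactors of T-box proteins, 17 could be compared between days 0 and 2, with a median difference of 0.27, and 0.00 over all genes. KDM6B, a histone H3K27 demethylase, was the only one past the threshold at day 2, at 1.75 CPM and 57.9 CPM, and none was past it between days 2 and 4. That 1 of 17 stood beside 4.63% of all genes higher and 1.93% lower at day 2. TLE1, a Groucho corepressor, measured 115, 54.7, 41.2 and 31.6 CPM, and its relative TLE3 65.2, 174, 134 and 113 CPM.

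Coding genes next to the members were examined in RefSeq gene order. Next to EOMES, SLC4A7 measured 150.1, 209, 167 and 112 CPM and CMC1 no more than 7.37 CPM, so neither had the range of EOMES. PDE10A, which lies beside TBXT, measured 3.10, 30.0, 40.0 and 38.9 CPM. It was the gene nearest in pattern to TBX20, on another chromosome, whereas PRR18 on the far side of TBXT had at most 1 count. Both coding neighbours of TBX20 were higher from day 2 on: DPY19L1 measured 48.3, 123, 151 and 150.1 CPM and HERPUD2 17.6, 41.8, 46.4 and 41.1 CPM. The nearest genes of any kind flanking TBX20 were the pseudogene DPY19L2P1, with 0, 39, 29 and 17 counts, and LOC401324, with 16, 12, 8 and 6. NT5E, beside TBX18, had 3, 1, 9 and 24 counts and its highest value at day 4, as TBX18 did, while CEP162 on the far side measured 29.5, 25.5, 24.5 and 24.9 CPM. MED13L, beside TBX3, measured 82.2, 261, 202 and 121 CPM, and RBM19, beside TBX5, 111 CPM at day 0 and 51.2 to 53.9 CPM later. The neighbours of TBX6, PPP4C and YPEL3, stayed between 62.6 and 95.8 CPM and between 12.4 and 14.7 CPM.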

How the data were processed

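RNA of H1 cells was sequenced at days 0, 2, 3 and 4, with 1 library a day. The submitters' processing notes name BWA, Bowtie, RSEM and the hg19 assembly, with no role or version for any tool. The deposited files give, per the file headers, an expected count, a transcript length and FPKM for each Entrez gene ID. The authors' expected count, an estimated number of reads, was the main unit. Of the values, 69.4 to 70.1% were whole as deposited (tolerance 0), and all were rounded. The authors' FPKM, deposited to 2 decimals, served to compare genes within a day. A gene not listed in a file was taken as 0.

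TMM factors (edgeR 4.0.16, R 4.3.3) of 0.981 to 1.02 scaled counts to CPM. Of 19390 gene IDs, 19273 matched RefSeq symbols of GRCh38.p14, and 1 listed name (TDGF1) was matched as a synonym. Folds are ratios of CPM with exact conditional binomial intervals, CPM have exact Poisson intervals, and changes of 2 genes were compared by the conditional odds ratio of their counts. For bounds on folds alone, a count of 0 was set to 3 counts. Every T-box member is named, with the 3 genes nearest in pattern, up to 4 genes of largest difference from each list and the neighbouring genes. Other list genes named (such as NKX2-5, TNNT2, NPPA, NPPB, GJA5, FOXA2, NOG and MSGN1) were chosen after their values were seen. The members, the 6 other lists and the rules were chosen with earlier results of these data known. The size rule and intervals were tested on simulated data. Python 3.11.15 was used with scipy 1.17.1. Alternatives are given in the closing section, with DESeq2 1.42.0 for the median-of-ratios factors. Promoter sequences are from RefSeq, GRCh38.p14. The deposited files hold no coordinates.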

Additional observations from a re-analysis of the deposited data

How the results depend on the processing

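With 1 library a day, no result could be checked against replicates, and no paired analysis was possible because each day has a single library. Median-of-ratios factors, unscaled totals and no filter left all 10 counts of members past the threshold as they were or within 1.5 times, as did a minimum of 5 CPM. With that minimum TBX2 and TBX18, at 3.63 and 3.09 CPM at day 4, lost their calls above day 0. Of all genes compared, 7.12% were then higher. Under both other scalings, all 34 levels above 0 stayed within their counting intervals, and the 30 percentages of the highest day did so on the deposited FPKM. The share of all genes past the threshold moved with the same settings and is given beside each count named here. From day 0 to day 2, 6 members were higher in place of 4 with a pseudocount of 0.1 CPM, beside 7.07% of all genes. TBX4 and TBX6 were added. The same 6 were higher with a 2-fold threshold, beside 12.9%. With a pseudocount of 5 CPM the number was 3, without TBX20, beside 2.35%. A pseudocount of 0.1 CPM gave 1 member higher from day 2 to day 3 (TBX2) in place of 0, beside 3.17% of all genes in place of 1.32%. It gave 2 higher from day 2 to day 4 (TBX2 and TBX18) in place of 0, beside 4.57% in place of 2.32%, and 2 lower from day 3 to day 4 (EOMES and TBX1) in place of 1, beside 1.48% in place of 0.228%. A pseudocount of 5 CPM gave 1 lower from day 2 to day 4 (EOMES) in place of 2, beside 0.532% of all genes, and 2 higher from day 0 to day 4 in place of 7, beside 3.22%. The deposited FPKM gave 3 higher from day 0 to day 4, beside 4.84%. A 2-fold threshold gave 2 higher (TBX2 and TBX4) and 1 lower (EOMES) from day 2 to day 3, beside 5.82% and 3.51%. It gave 4 lower from day 3 to day 4 (TBXT, EOMES, TBX1 and TBX6), beside 4.25%, and 3 higher from day 2 to day 4 (TBX2, TBX4 and TBX18), beside 8.18%. From day 2 to day 4 it also gave 3 lower, with TBX6 added, beside 7.60%. No member difference changed direction past the threshold. A larger pseudocount shrinks the difference of low genes by construction, and TBX1, TBX2, TBX4, TBX5, TBX6 and TBX18 rest on 30 counts or fewer in every library.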
